A study of Mus musculus with 3 samples.

Results

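Genes of the mitochondrial respiratory chain and ATP synthase were described in 3 spatial transcriptome libraries of mouse brain, for the mitochondrially encoded genes and the nuclear ones side by side. Members were chosen by gene symbol: symbols starting with mt-Nd, mt-Co, mt-Atp, mt-Cytb, Nduf, Sdh, Uqcr, Cox4, Cox5, Cox6, Cox7, Cox8 or Atp5, plus Usmg5, with a mean of at least 10 CPM (UMI counts scaled to a common library total, as parts of 1e6) over the 3 sections. Of 31053 rows in the gene tables, 111 matched the symbols and 106 reached that mean, against 9013 rows of all kinds. The members were 13 mitochondrially encoded genes, 79 nuclear subunits (36 of complex I, 4 of complex II, 8 of complex III, 15 of complex IV and 16 of complex V) and 14 nuclear assembly or associated factors. The CPM minimum used the level alone, not any difference between groups or sections. The symbols themselves were chosen with earlier results of these data known. Nearest above the minimum were Ndufaf6 (14.9 CPM), Cox7a1 (15.8 CPM) and Cox6b2 (16.8 CPM), and below it were Ndufa4l2 (7.04 CPM), Cox4i2 (3.78 CPM), Cox7b2 (1.36 CPM), and Cox8c and a second Atp5o row, both listed at 0.

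The respiratory chain passes electrons from NADH (complex I) and succinate (complex II) through complex III to oxygen at complex IV, and complex V uses the resulting proton gradient to make ATP. Mitochondrial DNA encodes the core membrane subunits of complexes I, III, IV and V and is transcribed as long polycistronic RNAs that are then cut into single messages. All subunits of complex II and most of the others come from nuclear genes, so the assembled complexes draw on both genomes, and several complex IV subunits have tissue-specific isoforms encoded by separate nuclear genes.

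The 3 libraries were Y-Ctrl, O-Ctrl and O-Ex, 1 brain section each, from mice of strain C57BL/6J. The Ctrl sections are labelled as controls and the O-Ex section as exercise, in a series on exercise and brain aging. The prefixes Y and O are given here as the labels have them; the sources used here do not give ages, sex, how many animals were used or what the exercise was. Fresh frozen sections 10 µm thick were laid on 10x Visium arrays, on which barcoded spots capture polyadenylated RNA and each molecule is counted by a unique molecular identifier (UMI). The molecule is labelled as nuclear RNA, while the protocol describes whole tissue sections. Each group is 1 section without a replicate, which allows no test, and condition, animal and section cannot be told apart. Every difference between sections below is a description.

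Barcodes with at least 3000 UMIs were kept: 3409 in Y-Ctrl and 3498 in O-Ctrl, and 3332 in O-Ex, with medians of 15718, 14900 and 13685 UMIs. All 3 libraries list the same 4992 array barcodes, and 2869 of them were kept in every section. A spot covers several cells or parts of cells. All kept spots were clustered jointly, leaving out the members and all other mitochondrially encoded genes, and clusters were named from marker genes: 18 groups held at least 20 spots in each section, and 12 of these held at least 50. The upper cortical layers carry that name on 3 of their markers (Lamp5, Mef2c and Rasgrf2), where 4 were required elsewhere, a concession made after the clusters were seen. The striatum group is uneven: its summed striatal markers stood at 6943 CPM in Y-Ctrl and 5668 in O-Ctrl, and 1150 in O-Ex, while Ttr, the transthyretin gene of choroid plexus, stood there at 3174, 4957 and 17812 CPM. Over whole sections Ttr stood at 3987 CPM in Y-Ctrl and 4864 in O-Ctrl, and 12495 in O-Ex, so sections were compared within spot groups.

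Many mitochondrial messages abut or overlap their neighbours on the same strand, which bears on how their counts can be read. Both longer overlaps are printed from mm10 (plus strand), with 20 bases on each side and the overlap in capitals. mt-Atp8 and mt-Atp6 share 43 bases (chrM:7927-7969, window chrM:7907-7989), and mt-Nd4l and mt-Nd4 share 7 (chrM:10167-10173, window chrM:10147-10193). The sources used here do not say how reads in the shared bases were assigned, and each pair is carried on 1 message, so the counts of mt-Atp8 and mt-Nd4l are uncertain.
mt-Atp8/mt-Atp6: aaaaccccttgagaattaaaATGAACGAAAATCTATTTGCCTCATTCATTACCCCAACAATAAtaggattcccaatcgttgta
mt-Nd4l/mt-Nd4: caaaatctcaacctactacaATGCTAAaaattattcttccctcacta

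For the nuclear members, promoters were matched by symbol to RefSeq (GRCm38.p6, 250 bases before to 50 after the start) for 80 of 93. The motif GCGCANGCG, the core of the element bound by the respiratory regulator NRF1, was found on either strand in 24 of the 80 (30.0%). It was in 7.03% of 27025 genes and in 17.1% of the 7241 genes whose mean reached 10 CPM. An ETS motif, CCGGAAG, was in 22 (27.5%), against 9.93% and 20.6%. A YY1 motif, AAGATGGCG, was in 8 (10.0%), against 1.64% and 4.05%. The 3 motifs do not contain one another, and 44 of the 80 promoters held at least 1 of them. A match is a description of letters, not of binding.

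The 150 bases before the start are printed for the 3 nuclear members whose levels over the tissue followed the mean nuclear profile most closely and the 3 that followed it least, with motif matches in capitals. The closest were Ndufb6 (chr4:40279422-40279571, minus strand), Cox6b1 (chr7:30626115-30626264, minus strand) and Ndufb2 (chr6:39592415-39592564, plus strand). The least alike were Cox6b2 (chr7:4753095-4753244, minus strand), Cox8b (chr7:140900447-140900596, minus strand) and Cox7a1 (chr7:30184021-30184170, plus strand). Cox6b1 holds an ETS match here and Ndufb6 one further upstream. Ndufb2, Cox6b2, Cox8b and Cox7a1 hold none of the 3 motifs in the whole RefSeq window, so members without a match stand at both ends.
Ndufb6: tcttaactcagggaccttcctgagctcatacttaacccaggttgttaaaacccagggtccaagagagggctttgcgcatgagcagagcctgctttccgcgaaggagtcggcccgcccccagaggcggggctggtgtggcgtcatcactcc
Cox6b1: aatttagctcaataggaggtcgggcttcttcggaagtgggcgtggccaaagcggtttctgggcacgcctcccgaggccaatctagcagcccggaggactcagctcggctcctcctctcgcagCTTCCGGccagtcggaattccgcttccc
Ndufb2: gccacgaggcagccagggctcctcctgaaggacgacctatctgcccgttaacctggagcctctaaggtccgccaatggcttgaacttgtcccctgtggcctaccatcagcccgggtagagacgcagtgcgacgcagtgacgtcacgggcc
Cox6b2: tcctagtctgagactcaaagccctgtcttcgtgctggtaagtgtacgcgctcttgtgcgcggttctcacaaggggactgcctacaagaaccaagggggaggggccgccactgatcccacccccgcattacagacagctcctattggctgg
Cox8b: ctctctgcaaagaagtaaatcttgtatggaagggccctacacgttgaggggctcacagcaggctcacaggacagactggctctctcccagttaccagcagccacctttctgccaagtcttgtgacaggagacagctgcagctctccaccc
Cox7a1: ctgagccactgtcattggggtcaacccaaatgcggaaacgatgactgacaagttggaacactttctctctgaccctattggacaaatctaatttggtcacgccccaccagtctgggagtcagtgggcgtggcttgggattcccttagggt

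The 13 mitochondrially encoded members made up 19.7% of UMIs in both controls and 17.8% in O-Ex. The 93 nuclear members made up 5.15% (Y-Ctrl), 5.14% (O-Ctrl) and 4.78% (O-Ex). There were thus 3.82, 3.83 and 3.71 mitochondrial UMIs for each nuclear member UMI, so the ratio of the 2 sets varied little between whole sections. In bulk values of spots, fewer cells of a type and less RNA per cell cannot be told apart.

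Among the mitochondrial members the highest levels per length belonged to a subunit of complex V and one of complex IV. mt-Atp6, the proton channel subunit of complex V, had a mean of 48503 CPM per kb (34251 CPM in Y-Ctrl and 34515 in O-Ctrl, and 30325 in O-Ex). mt-Co3, a core subunit of complex IV, had 45438 CPM per kb (37093, 37083 and 32694 CPM). mt-Nd5, a proton-pumping subunit of complex I, had 918 CPM per kb (1751, 1719 and 1556 CPM). The lowest was mt-Nd6, the only member read from the other strand of mitochondrial DNA (chrM:13552-14070), with 83.2 CPM per kb (42.6, 44.7 and 42.2 CPM). These levels span genes that are cut from a shared precursor, and Visium counts follow polyadenylation as well as amount.

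The remaining mitochondrial members lay between mt-Co3 and mt-Nd5 in CPM per kb, while by CPM mt-Nd4l and mt-Atp8 lay below mt-Nd5. In complex IV, mt-Co1 stood at 27182, 27909 and 25669 CPM and mt-Co2 at 22382, 23093 and 21369 CPM in Y-Ctrl, O-Ctrl and O-Ex. mt-Cytb, the catalytic subunit of complex III, stood at 18124, 17971 and 15558 CPM. In complex I, mt-Nd1 stood at 16517, 16406 and 14876 CPM, mt-Nd2 at 14997, 14368 and 13760, mt-Nd4 at 13401, 12983 and 11906, and mt-Nd3 at 10544, 10260 and 9107. These 7 were lowest in O-Ex. mt-Nd4l stood at 390, 381 and 350 CPM and mt-Atp8 at 309, 311 and 325 CPM, under the overlap limit given above.

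The highest nuclear member in CPM per kb was Cox8a, a small complex IV subunit, at 4683 (2742, 2613 and 2372 CPM in Y-Ctrl, O-Ctrl and O-Ex). Cox6c, another complex IV subunit, stood at 2367, 2301 and 2042 CPM. By CPM, the leading nuclear members of complex I were Ndufa13 (795, 808 and 788 CPM) and Ndufb9 (733, 729 and 649 CPM). In complex II they were the flavoprotein Sdha (272, 278 and 289 CPM) and the iron-sulfur subunit Sdhb (242, 245 and 231 CPM). In complex III they were Uqcrh (1001, 1017 and 948 CPM) and Uqcrq (1006, 1004 and 900 CPM). In complex V they were Usmg5, which stabilises ATP synthase (1566, 1548 and 1220 CPM), and Atp5e (1252, 1210 and 1139 CPM). Among the other factors they were Cox7a2l, a supercomplex factor (315, 314 and 290 CPM), and Ndufaf8 (99.5, 94.8 and 90.5 CPM). Of these 12 nuclear genes, Sdha was the only one that was highest in O-Ex.

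The balance between both genomes varied much more between spot groups than between sections. The lowest ratios of mitochondrial to nuclear member UMIs were in hippocampal CA1 (1.16 to 1.40 over the 3 sections), CA2 and CA3 (1.57 to 1.86), the dentate gyrus (1.40 to 1.98) and choroid plexus (2.17 to 3.05). The highest were in white matter (5.08 to 5.25), the meninges (5.12 to 6.01) and a group led by Cabp7 and Ddn (5.87 to 6.24). That last group stayed unnamed, with 3 CA1 markers (Spink8, Fibcd1 and Nr3c2) among its leading genes. In the order of the 18 groups by their median ratio, 13 of the 17 neighbouring pairs overlapped over sections. The gaps lay between CA1 and CA2 with CA3, below and above choroid plexus, and between ependyma and the upper cortical layers.

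**Figure D1:**
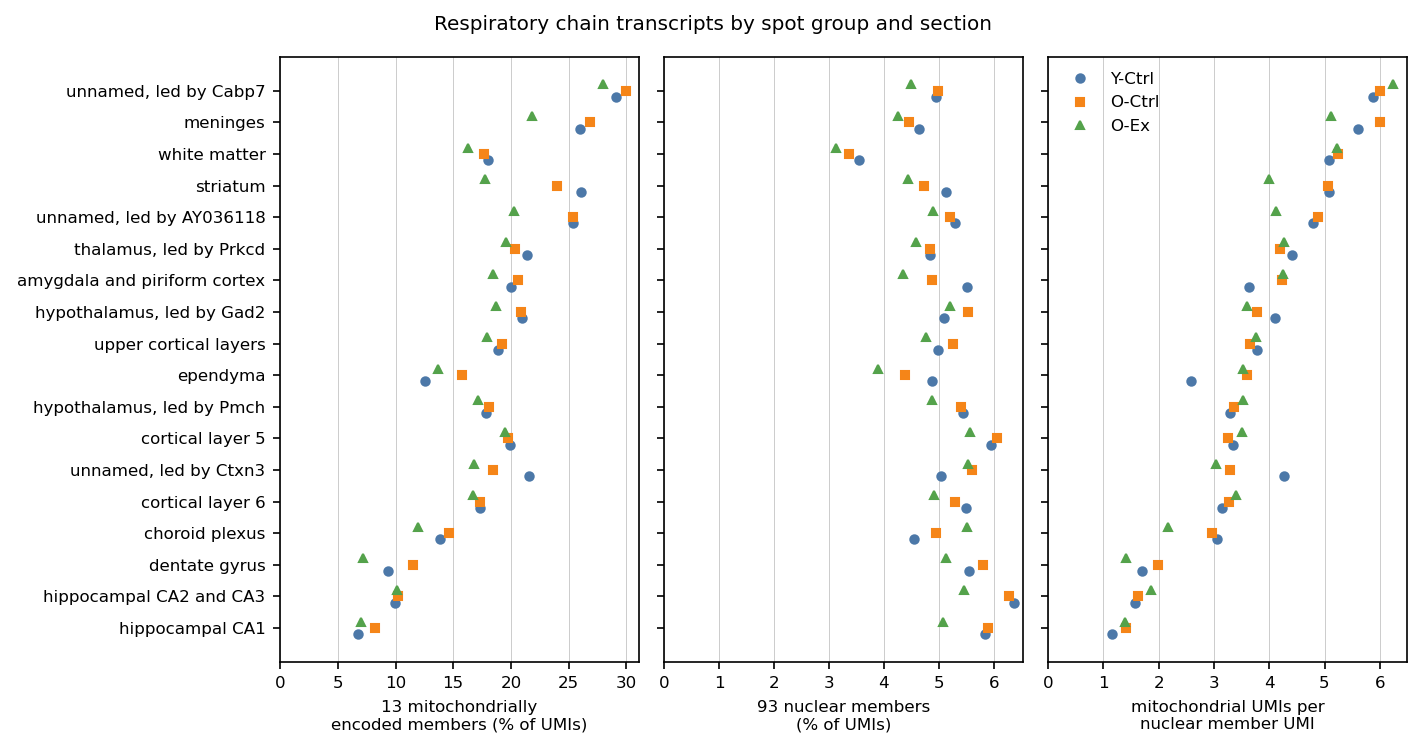
UMIs of the 13 mitochondrially encoded members and of the 93 nuclear members as a percentage of all UMIs, and their ratio, in 18 spot groups, with 1 point per section. Hippocampal groups have the lowest ratios, from 1.16 in CA1, and the Cabp7-led group the highest, up to 6.24.

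Groups at the high end differed in their shares. The Cabp7-led group held the largest share of mitochondrial member UMIs (28.0% to 29.9%) at a middling nuclear share (4.49% to 4.98%). White matter had an ordinary mitochondrial share (16.3% to 18.0%) and the lowest nuclear share of the 18 groups (3.12% to 3.54%). CA1 had a mitochondrial share of 6.79% to 8.25% with a nuclear share of 5.07% to 5.89%.

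Depth moved with these shares. Across the 18 groups the mitochondrial percentage and the log10 of the median UMIs per spot had a Pearson r of -0.66 (Y-Ctrl), -0.60 (O-Ctrl) and -0.67 (O-Ex), and the nuclear percentage an r of 0.49, 0.40 and 0.43. The points of each section share 1 library, and both percentages are of the same total. Within groups, the deepest tertile of spots had a lower mitochondrial share than the shallowest in 18 (Y-Ctrl), 16 (O-Ctrl) and 17 (O-Ex) of 18 groups. The deepest tertile of the Cabp7-led group held 23.4%, 23.9% and 23.1% at median depths of 21909, 17547 and 17946.5 UMIs. The shallowest tertile of CA1 held 10.0%, 15.6% and 12.3% at higher depths of 40153, 23033 and 28622.5 UMIs. The part of depth in the order of the groups was not tested beyond these values.

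CA1 and the Cabp7-led group had the lowest and the highest mitochondrial share in all 3 sections. The direction of the mitochondrial ratios below thus follows from the choice of this pair. mt-Co3 stood at 13327, 16301 and 13413 CPM in CA1 of Y-Ctrl, O-Ctrl and O-Ex, and at 54377, 56509 and 51278 CPM in the Cabp7-led group, with no overlap. All 13 mitochondrial members were at least 1.5-fold lower in CA1 in all 3 sections, as were 8.44% of all genes. Their median log2 ratio (of CPM plus 5) was -2.05 (SD 0.13, n = 3 sections), and single genes ranged from -1.76 for mt-Cytb to -2.54 for mt-Atp8. The nuclear members had a median of 0.35 (SD 0.03, n = 3 sections), below the 0.45 of all genes: 17 of 93 were at least 1.5-fold higher in every section, against 25.3% of all genes, and 1, Cox6b2, was lower (-1.07).

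Because mitochondrial UMIs are part of the total, the contrast was also taken on CPM of the other UMIs. The mitochondrial median was then -2.43 (SD 0.13, n = 3 sections), the nuclear median -0.03 (SD 0.01) and that of all genes 0.13. On this scale no nuclear member was 1.5-fold higher in all 3 sections, where 8.38% of all genes were, and 2 were lower, where 12.7% were. The dentate gyrus was set against the same group, whose mitochondrial share was the highest, so the direction of the mitochondrial ratios again follows from the choice. All 13 mitochondrial members were at least 1.5-fold lower in the dentate gyrus in every section on both scales. So were 6.92% of all genes on CPM of all UMIs and 11.3% on CPM of the other UMIs. On the latter the medians were -2.16 (SD 0.36) for mitochondrial and -0.07 (SD 0.03) for nuclear members, and 0.13 for all genes. On the other UMIs the nuclear medians thus lay near 0, somewhat below those of all genes, and the mitochondrial ones far below.

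Within the nuclear set, CA1 differed by role. On CPM of all UMIs the assembly and associated factors had a median log2 ratio of 0.79 (SD 0.17, n = 3 sections), complex II 0.53, complex I 0.40, complex III 0.28, complex V 0.26 and complex IV -0.11 (SD 0.06). The highest were Atp5s (1.07), an ATP synthase coupling factor, Sdhaf2 (1.00), which attaches the flavin of Sdha, Ndufaf4 (0.93), a complex I assembly factor, and Uqcrc2 (0.93, SD 0.01), a core subunit of complex III. These 4 were named for their values. Of the 15 nuclear subunits of complex IV, 9 were lower in all 3 sections on this scale, where 18.0% of all genes were and the median of all genes was 0.45. The assembly and associated factors were not summarised on CPM of the non-mitochondrial UMIs. On that scale complexes III (-0.09) and V (-0.12) were also below 0, complex I stood at 0.02 and complex II at 0.15. Complex IV was lowest again (-0.48, SD 0.05), with 13 of 15 lower in all 3 sections, as were 28.5% of all genes.

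White matter, the opposite case, was set against the upper cortical layers. The mitochondrial members were nearly level, with medians of -0.03, -0.08 and -0.08 in Y-Ctrl, O-Ctrl and O-Ex (mean -0.06, SD 0.03), and 0.05 under TMM scaling, so they have no stable direction. On CPM, 10 of 13 were lower in every section, as were 56.6% of all genes. mt-Nd6 (0.31), mt-Atp8 (0.20) and mt-Nd4l (0.20) were higher in every section. The nuclear members had medians of -0.51, -0.59 and -0.57 (mean -0.56, SD 0.04), against -0.27 (SD 0.02) for all genes. That gap of -0.29 depends on the genes counted: among those of at least 50 CPM it was -0.09, as all genes then had -0.48 and the members -0.57. Of the 93, 82 were lower in all 3 sections (56.6% of all genes) and 4 higher (28.9%). Past 1.5-fold in every section, 34 were lower (27.2% of all genes) and 2 were higher (12.9% of all genes).

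In white matter over the upper cortical layers every nuclear complex had a median below 0. All genes had -0.27, and -0.48 among those of at least 50 CPM. The median log2 ratio was -0.56 for complex I, -0.41 for complex II, -0.51 for complex III, -0.61 for complex IV, -0.64 for complex V and -0.58 for the assembly and associated factors. Usmg5 stood at 733, 665 and 540 CPM in white matter and at 1562, 1687 and 1292 CPM in the upper layers (log2 ratio -1.22). Ndufa4, a complex IV subunit first assigned to complex I, stood at 950, 913 and 767 CPM against 2060, 2171 and 1821 CPM (-1.20). For both genes all 3 white matter values lay below all 3 cortical ones. Cox6a2 had the lowest ratio (-1.46), and Cox8b (1.79, SD 0.86), Cox6b2 (1.51) and Cox7a1 (0.39) the highest. White matter was the group with the lowest mean level for 65 of the 93 nuclear members, and for none of the 13 mitochondrial ones, of which 11 were lowest in CA1. How many of all genes were lowest in these groups was not counted, so these counts have no background.

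**Figure D2:**
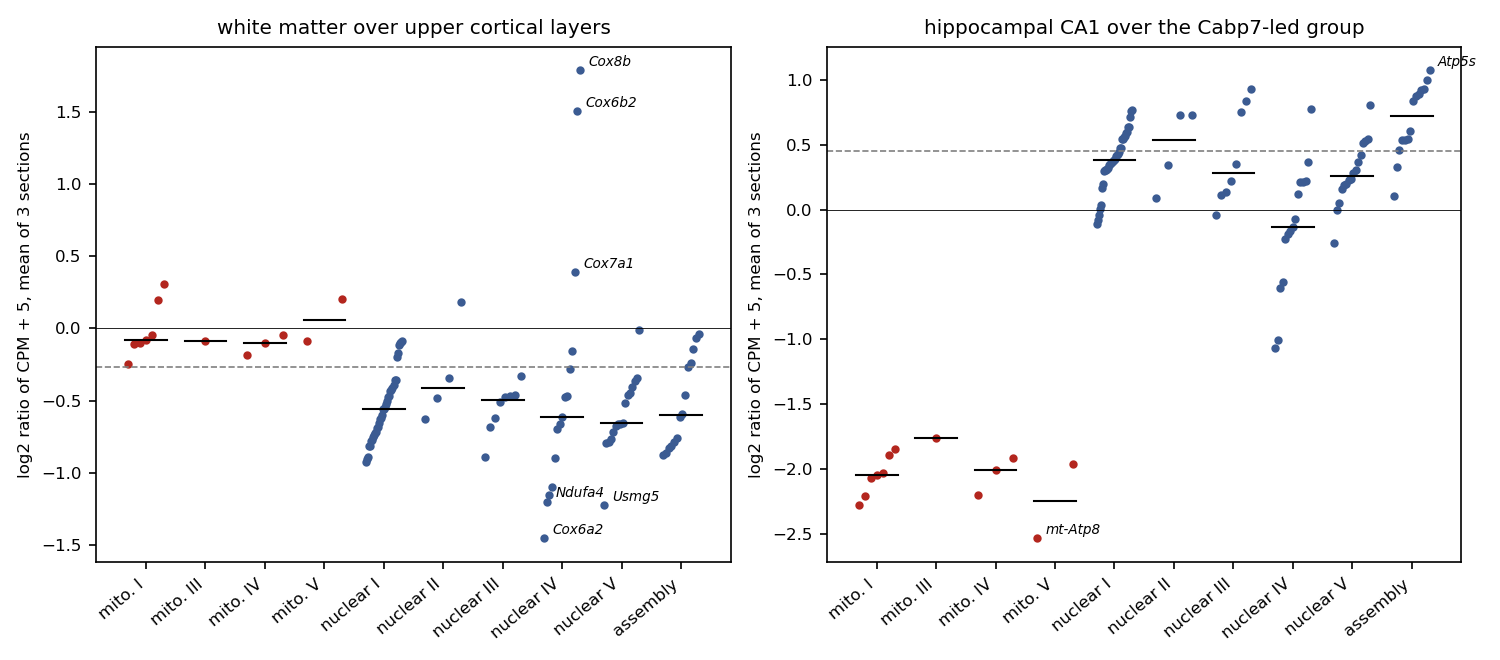
Log2 ratio of CPM plus 5 for each member, mean of 3 sections, by genome and complex; bars are medians of the points and the dashed line is the median of all genes. Mitochondrial members (red) are near 0 in white matter and about 2 log2 units lower in CA1, where nuclear members (blue) are mostly above 0.

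In complex IV, 4 nuclear genes departed from the rest of the set. Cox8b, Cox6b2, Cox7a1 and Cox6a2 are the isoforms best known from heart and skeletal muscle (Cox6b2 from testis), and their partners Cox8a, Cox6b1, Cox7a2 and Cox6a1 are widely expressed. They had the 4 largest ranges of mean log2 level over the 18 groups among nuclear members: 6.82 for Cox8b, 5.01 for Cox6b2, 3.55 for Cox7a1 and 3.18 for Cox6a2, against a median of 1.10 for all 93. The ranges of the partners were 0.81 for Cox8a, 0.90 for Cox6b1, 1.21 for Cox7a2 and 0.73 for Cox6a1. The smallest ranges belonged to 2 accessory subunits of complex I, Ndufb7 (0.46) and Ndufa3 (0.49).

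Cox8b (chr7:140898945-140900446, minus strand, mm10) was highest in choroid plexus. It stood there at 236 CPM in Y-Ctrl (244 UMIs) and 702 in O-Ctrl (853 UMIs), and 1054 in O-Ex (2877 UMIs), while Cox8a stood at 2350, 2640 and 2962 CPM. Cox8b stood at 8.6, 41.4 and 136 CPM in ependyma and at 7.5, 39.3 and 13.5 CPM in white matter. In CA2 and CA3 no Cox8b UMI was counted in any section, where 3 UMIs would have been 2.83, 2.79 and 2.30 CPM. The choroid plexus groups do not overlap with these others, and in choroid plexus Cox8a remained the higher of the pair.

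Cox6b2 and Cox7a1 were also highest in choroid plexus. Cox6b2 stood at 158, 191 and 256 CPM there and at 63.7, 52.2 and 79.8 CPM in ependyma, beside 598, 688 and 755 CPM of Cox6b1 in choroid plexus. Cox7a1 stood at 79.4, 94.6 and 119 CPM in choroid plexus. Against the mean of the other 17 groups, the log2 ratio in choroid plexus was 5.90 (SD 0.66, n = 3 sections) for Cox8b, 3.80 (SD 0.24) for Cox6b2 and 2.64 (SD 0.22) for Cox7a1, where 8.59% of all genes were at least 1.5-fold higher in every section. Next came Atp5g1 (0.95), which encodes subunit c of ATP synthase, the complex II anchor Sdhc (0.88), and the complex I subunits Ndufv3 (0.85) and Ndufa1 (0.77). The choroid plexus spots numbered 44, 41 and 100, with Ttr at 205314, 185608 and 204082 CPM. Their nuclear share (4.56% to 5.51% of UMIs) lay within the range of the other groups. Ttr is part of that total and lowers the CPM of all else there, and shares without Ttr were not taken. Against the other 17 groups the median log2 ratio was -0.40 for all genes, -0.12 for nuclear members and -0.45 for mitochondrial members.

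Cox6a2 (chr7:128205435-128206387, minus strand) went the other way. It stood at 135, 97.4 and 115 CPM in the Prkcd-led thalamus and at 74.5, 107 and 109 CPM in cortical layer 5, against 12.6, 7.4 and 5.5 CPM in choroid plexus and 11.4, 27.4 and 19.8 CPM in white matter. Its log2 ratio in choroid plexus against the other groups was -1.50, with mt-Nd6 (-1.56) and Ndufb4 (-1.25) the members around it. All genes had a median of -0.40 in that contrast, and 28.4% of them were at least 1.5-fold lower in every section. The 3 genes of subunit c, which encode the same mature protein, also differed. Atp5g1 stood at 789, 928 and 1324 CPM in choroid plexus and was lowest in white matter, Atp5g3 at 530, 539 and 687 CPM in choroid plexus and was highest in layer 5, and Atp5g2 was highest in the dentate gyrus.

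**Figure D3:**
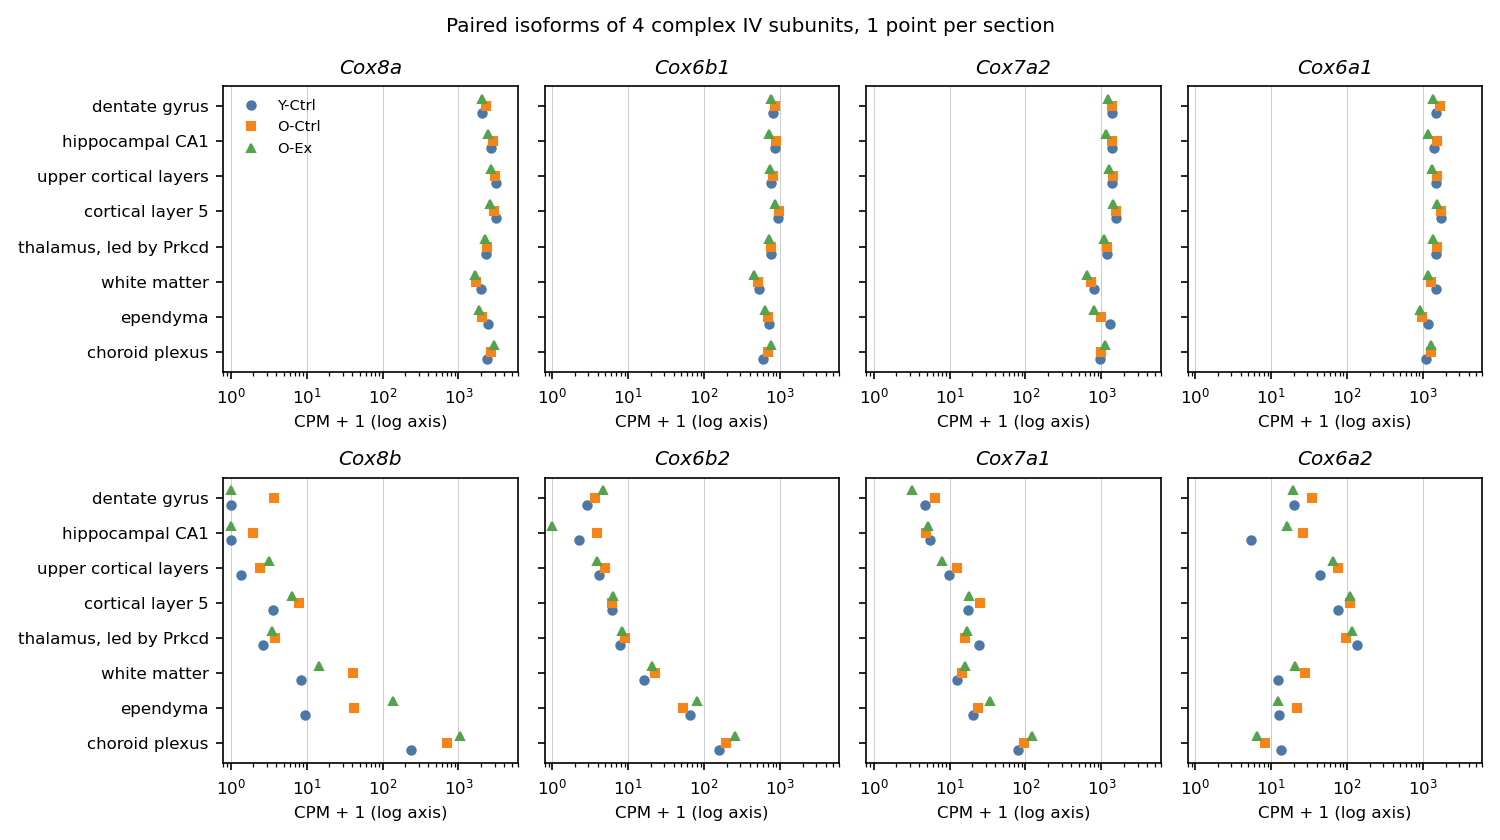
CPM plus 1 on a log axis for 4 complex IV isoform pairs in 8 spot groups, 1 point per section; the widely expressed isoform is above and its partner below. Cox8b, Cox6b2 and Cox7a1 are highest in choroid plexus, Cox6a2 is low in choroid plexus and white matter, and the upper row varies less than the lower.

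Cox8b also had the highest ratio of the nuclear members in both region-matched comparisons of sections given below. Choroid plexus was outside the 12 groups with 50 spots and was compared directly. From Y-Ctrl to O-Ctrl, Cox8b and the scarce Ndufaf6 were the 2 of 93 nuclear members at least 1.5-fold higher (5.23% of all genes), with none lower (6.34%), and the nuclear median was 0.13. From O-Ctrl to O-Ex none was higher (2.92%) and 1, Sdhaf3, was lower (7.34%), with a nuclear median of 0.11 and a mitochondrial one of -0.26. From Y-Ctrl to O-Ex 5 were higher (4.09%), Atp5g1, Cox6b2, Cox8b, Ndufa11 and Ndufaf6, and 1, Cox6a2, was lower (9.21%). Per 1000 Ttr UMIs, choroid plexus held 1.15 Cox8b UMIs in Y-Ctrl (95% exact Poisson interval of the Cox8b count 1.01 to 1.30), with 3.78 in O-Ctrl (3.53 to 4.04) and 5.16 in O-Ex (4.98 to 5.36). For Cox6b2 the values were 0.769, 1.03 and 1.26, and for Cox7a1 0.387, 0.510 and 0.585.

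The Cox8b UMIs of other groups were set against Ttr too. White matter held 29, 181 and 43 Cox8b UMIs beside 8637, 25084 and 6111 Ttr UMIs, both highest in O-Ctrl. Per 1000 Ttr UMIs, ependyma held 1.72 (Y-Ctrl), 5.82 (O-Ctrl) and 7.82 (O-Ex) Cox8b UMIs, and white matter 3.36, 7.22 and 7.04. Y-Ctrl was the lowest section in choroid plexus, ependyma, white matter and striatum. In ependyma Cox6b2 per 1000 Ttr UMIs was 12.7, 7.34 and 4.58, in the opposite order, so its UMIs there did not keep the ratio to Ttr seen in choroid plexus. The part of free or spread choroid RNA in the Cox8b values of other groups was not tested.

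Over the 54 points of group and section, mitochondrial members ran closely together and nuclear members moderately so. The median Pearson r of log2 CPM, centred within section, was 0.96 for pairs of mitochondrial members and 0.51 for pairs of nuclear members, against 0.11 for pairs of all genes. Between a mitochondrial and a nuclear member the median was -0.29, and between both mean profiles r was -0.40. The points share 3 libraries and their totals, which tie a large mitochondrial share to lower CPM of all else. Ndufb6 (0.938), Cox6b1 (0.935) and Ndufb2 (0.934) were most like the nuclear mean, and Cox6b2 (-0.39), Cox8b (-0.39) and Cox7a1 (-0.22) least.

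Genes outside the set that ran most like the nuclear mean over those 54 points were Cycs (r 0.90), which encodes the electron carrier cytochrome c, Higd1a (0.89), a factor associated with complexes III and IV, Hprt (0.89), Naa20 (0.88) and Isca1 (0.87), which serves iron-sulfur cluster assembly. Those most like the mitochondrial mean were the dendritic non-coding RNA Bc1 (0.89), Lrrc17 (0.88), Glul (0.83), the glutamine synthetase of astrocytes, S1pr1 (0.83) and Prex2 (0.78). These are likenesses of level over spot groups only.

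The O-Ctrl and Y-Ctrl sections differed little in the medians of the respiratory chain genes. Within the 12 shared groups, weighted equally, the median log2 ratio was 0.00 for mitochondrial members (-0.0015 under TMM scaling), -0.01 for nuclear members and -0.01 for all genes. Of the 93 nuclear members 56 were lower and 37 higher, where 52.2% of all genes were lower. The nuclear sign was not stable either: 40 were lower over whole sections and 36 at a minimum of 1000 UMIs. At 1.2-fold, only Cox8b (0.76) was higher, where 1.88% of all genes were, and none was lower, where 1.3% were. Ndufv1, the flavoprotein that accepts electrons from NADH, had 0.18 (172 CPM in Y-Ctrl and 197 in O-Ctrl over whole sections) and Cox7a1 0.16. The lowest were Ndufa1, Cox7c and Ndufa4, each at -0.12. By group, ependyma stood apart with a mitochondrial median of 0.34 and a nuclear one of -0.15, and group medians were on both sides of 0 in both sets. No member was lower in all 12 groups (0.865% of all genes) or higher in all 12 (1.11%). Among cell type markers, 4 of 4 blood genes (median 0.21) and 6 of 8 microglial genes (0.18) were higher, where 47.8% of all genes were. Lower were 7 of 8 neuronal genes (-0.07) and 4 of 7 endothelial genes (-0.15), the latter near the 52.2% of all genes. Summed CPM of whole sections went the other way for blood (1132 in Y-Ctrl and 1098 in O-Ctrl) and endothelial genes (772 and 791). It went the same way for microglial (392 and 497) and neuronal genes (4535 and 4315). Astrocyte and oligodendrocyte genes had medians of 0.04 and 0.01. The part of these markers was not tested.

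The O-Ex section had lower levels of both sets than O-Ctrl, the section that also served in the comparison above. The median log2 ratio was -0.13 for mitochondrial members, of which 12 of 13 were lower, from mt-Cytb (-0.20) to mt-Atp8 (0.01). On CPM of the non-mitochondrial UMIs mt-Atp8 was also lower (-0.03). The median was -0.08 for nuclear members, of which 67 of 93 were lower (74 on CPM of the non-mitochondrial UMIs and 84 under TMM scaling). All genes had a median of 0.08, and 24.5% of them were lower. Relative to that shift, all 13 mitochondrial and 82 of the 93 nuclear members lay below the median of all genes.

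**Figure D4:**
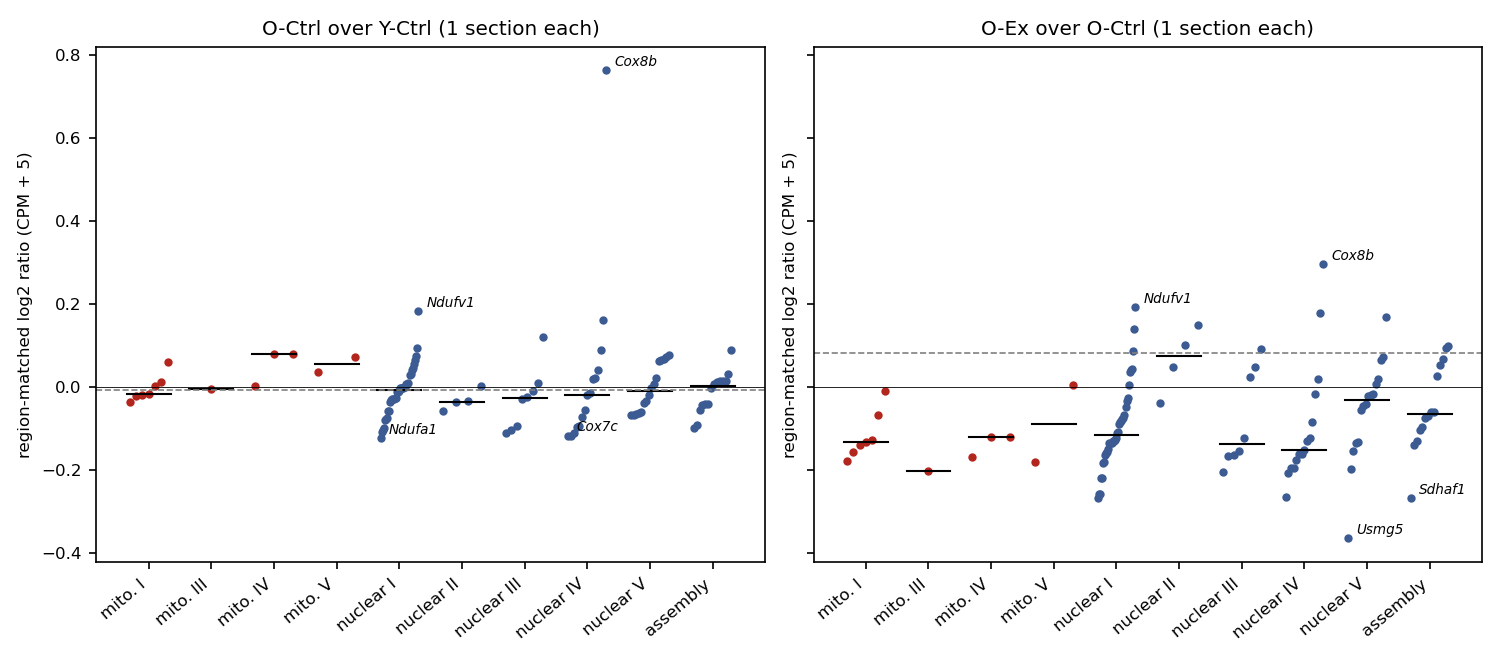
Region-matched log2 ratio of CPM plus 5 for each member between sections, by genome and complex; bars are medians of the points and the dashed line is the median of all genes. In O-Ex over O-Ctrl most members lie below both 0 and the dashed line, and in O-Ctrl over Y-Ctrl most lie near 0 apart from Cox8b (0.76).

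The direction was shared by the spot groups. The mitochondrial median and the nuclear median were below 0 in 12 of 12 groups and that of all genes was above 0 in 12 of 12. The nuclear median ranged from -0.02 in the meninges to -0.16 in ependyma. The mitochondrial one ranged from -0.01 in layer 5 to -0.43 in the striatum group, whose striatal markers differ between sections; without that group the region-matched mitochondrial median was -0.11. Of 93 nuclear members 33 were lower in all 12 groups, as were 1.21% of all genes (44 and 3.63% under TMM scaling), and 1, Atp5g3, was higher in all 12, as were 4.74%. Of 13 mitochondrial members, 5 were lower in all 12 (6 on CPM of the non-mitochondrial UMIs and 10 under TMM scaling). The 12 groups come from the same 2 sections and are not replicates.

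**Figure D5:**
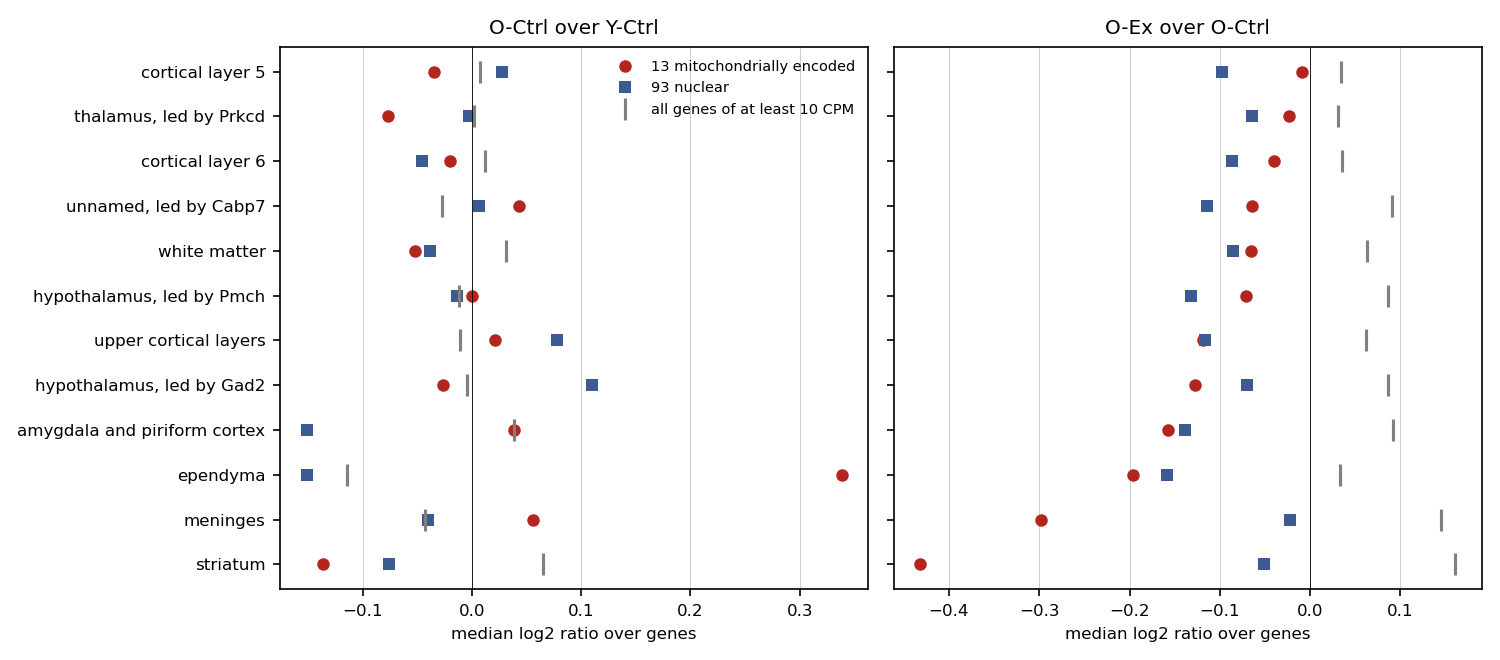
Median log2 ratio over the 13 mitochondrially encoded members (circles), the 93 nuclear members (squares) and all genes of at least 10 CPM (ticks) in each of 12 shared spot groups, for both section comparisons. In O-Ex over O-Ctrl both member medians are below 0 in every group and the ticks are above 0, while in O-Ctrl over Y-Ctrl they scatter around 0.

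Past 1.2-fold in O-Ex over O-Ctrl, 4 nuclear members were lower, where 0.577% of all genes were, and only Cox8b (0.30) was higher, where 6.48% were. Under TMM scaling 16 were lower (2.01% of all genes) and none higher. Without the striatum group 3 were lower (0.499% of all genes): Usmg5 (-0.36), Ndufa3 (-0.28) and Ndufa6 (-0.27). Cox7c (-0.25) and Sdhaf1 (-0.22) then fell short of 1.2-fold. None was higher (5.35%), with Cox8b at 0.23. Usmg5 had the lowest ratio (-0.36, 95% counting interval -0.38 to -0.34), was lower in 12 of 12 groups and stood at 1548 CPM in O-Ctrl and 1220 in O-Ex. Ndufa6, a complex I subunit, had -0.27 (674 and 561 CPM), Cox7c -0.26 (1694 and 1447 CPM), and Sdhaf1, a complex II assembly factor, -0.27 (44.4 and 36.9 CPM). In Y-Ctrl Usmg5 stood at 1566, Ndufa6 at 672, Cox7c at 1798 and Sdhaf1 at 44.5 CPM. Their region-matched ratios of O-Ctrl over Y-Ctrl were -0.07, -0.03, -0.12 and 0.03, and Cox7c was thus among the lowest members of that comparison too.

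The complexes differed in this comparison. Median log2 ratios were -0.15 for complex IV, -0.14 for complex III, -0.12 for complex I (29 of 36 lower), -0.06 for the assembly and associated factors, -0.03 for complex V and 0.08 for complex II. All genes had a median of 0.08. Within complex I, the 29 accessory subunits had -0.13 (25 lower) and the 4 core subunits of the quinone arm -0.04. The 3 core subunits of the NADH-binding arm had 0.09, near the median of all genes. They were mixed, with Ndufv1 at 0.19, Ndufs1 at 0.09 and Ndufv2 at -0.15. Ndufv1 (0.19), one of those 3, was the second highest nuclear member, after Cox8b and before Cox6b2 (0.18). Atp5g3 (0.17), Sdhc (0.15) and the accessory subunit Ndufa10 (0.14), named for their values, followed. These differences between complexes were not tested.

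Transcript length moved with this comparison. Over the 93 nuclear members the log2 ratio and log2 transcript length had a Pearson r of 0.32, and over 8928 genes with a length it was 0.29, while in O-Ctrl over Y-Ctrl the members had 0.06. By tertile of length the nuclear medians were -0.14, -0.08 and -0.02 at median lengths of 528, 704 and 1231 bases. Genes that are no member, cut at the same lengths, had medians of -0.01, 0.03 and 0.10. After each gene was set against genes of like length, an alternative added after seeing the data, the mitochondrial median was -0.18 and the nuclear median -0.12, compared with -0.22 and -0.17 relative to the median of all genes before. What lies behind the relation with length was not tested.

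Among other markers, haemoglobin and related blood genes stood at 1098 CPM summed in O-Ctrl and 2036 in O-Ex (median log2 ratio 0.75, 4 of 4 higher). Of 7 endothelial genes 6 were higher (median 0.22), and of 8 neuronal genes all 8 were (0.14), where 75.5% of all genes were higher. Of 8 astrocyte genes 6 were lower (median -0.03), where 24.5% of all genes were. The medians of 8 oligodendrocyte genes (0.05) and 8 microglial genes (0.07) lay beside the 0.08 of all genes. Median depth was 13685 UMIs in O-Ex and 14900 in O-Ctrl. The part of these markers and of depth in the member values was not tested.

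Other genes of the pathway were read in O-Ex over O-Ctrl against all genes, of which 75.5% were higher and 24.5% lower. Of 20 further chain subunits and carriers, 15 were higher and 5 lower (median 0.07), among them the abundant ADP/ATP carrier Slc25a4 (0.03) and mitochondrial glycerol-3-phosphate dehydrogenase Gpd2 (0.30). 2010107E04Rik (-0.26), a small ATP synthase-associated protein, was lower at 921 and 789 CPM. Of 34 further assembly factors 19 were lower (median -0.0042), with Cox14 at -0.22, Uqcc2 at -0.21 and Cox17 at -0.20. Of 77 mitochondrial ribosomal proteins 48 were lower (median -0.03), with Mrps33 at -0.24 and Mrps21 at -0.22.

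The lists of enzymes and regulators lay beside all genes in their medians. Of 21 genes of pyruvate dehydrogenase and the citric acid cycle, which supply the chain with NADH and succinate, 18 were higher (median 0.10), among them Idh2 (0.19), Pcx (0.18) and the abundant Mdh2 (0.15), while the pyruvate carrier Mpc1 had -0.14. Of 16 factors of mitochondrial DNA and RNA 12 were higher (median 0.04), with Lrpprc, which stabilises mitochondrial messages, at 0.23 and the mitochondrial RNA polymerase Polrmt at 0.21, but Slirp, the partner of Lrpprc, at -0.19. Of 10 biogenesis regulators 9 were higher (median 0.08), with Creb1 at 0.18 and Yy1 at 0.16, and the deacetylase Sirt3 was lower (-0.07). The median of all genes was 0.08. In O-Ctrl over Y-Ctrl no list of the 6 had a median further from 0 than the -0.03 of the assembly factors.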

How the data were processed

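Per the labels, 3 sections of mouse brain, 1 per group, were measured on 10x Visium arrays. The deposited values are whole-number UMI counts per gene and barcode, not normalized by the authors. Per the file headers they come from Space Ranger 2.0.0, and the submitters' processing notes name mm10. Transcript lengths and gene positions came from the GENCODE annotation of mm10, promoters from RefSeq (GRCm38.p6). Images and spot positions were not used here.

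Barcodes with at least 3000 UMIs held 98.1%, 97.9% and 97.5% of the 62348064, 58234443 and 53196124 UMIs of Y-Ctrl, O-Ctrl and O-Ex. They were clustered with scanpy 1.11.5 on 2000 variable genes scaled within section, members and mitochondrially encoded genes left out (30 components, 15 neighbours, Leiden resolution 0.8), which gave 22 clusters. A cluster was named when at least 4 markers of a region were among its 30 leading genes. Doublets were not called, as spots hold several cells. Counts were summed per spot group and section, given as CPM, and compared as log2 of CPM plus 5. Region-matched ratios give equal weight to the 12 groups with at least 50 spots in each section (80.5%, 88.9% and 80.2% of spots). Intervals cover counting error only.

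The members and lists were chosen with earlier results of these data known. Named genes were the mitochondrial members, the 2 most abundant nuclear members of each complex, the 3 highest and 3 lowest of each comparison, the 4 largest and 2 smallest ranges over groups, isoform families, genes nearest the minimum, and of other lists the 2 most abundant and the 2 with the largest ratio. Alternatives covered the UMI minimum, scaling (with TMM from edgeR 4.0.16), clustering, thinning, pseudocount, the CPM minimum and the weighting of groups.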

Additional observations from a re-analysis of the deposited data

Results flagged for a closer look

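Nuclear respiratory chain genes were also counted in the barcodes that were left out for having under 3000 UMIs, numbering 1583 for Y-Ctrl, 1494 for O-Ctrl and 1659 for O-Ex. They took 5.17% of the UMIs of those barcodes in O-Ex, more than the 5.07% of Y-Ctrl and the 4.91% of O-Ctrl, whereas among the kept spots O-Ex had the lowest share (4.78%). These barcodes can lie off the tissue or over thin parts of it, which was not tested.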

How the results depend on the processing

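The nuclear medians kept their direction in O-Ex over O-Ctrl under 19 of 19 alternatives, and in white matter over upper cortical layers under 12 of 12. In O-Ctrl over Y-Ctrl the nuclear median, -0.0116, had no stable sign and lay between -0.0244 and 0.0156. The mitochondrial median of that comparison, 0.0042, had none either: it was -0.0015 with TMM scaling, -0.0078 with groups weighted by spots, -0.0098 over whole sections, -0.0186 at a minimum of 1000 UMIs, -0.0101 at resolution 1.5, -0.0193 with sections scaled together, -0.0073 after thinning and 0.0188 without the striatum group. In O-Ex over O-Ctrl the mitochondrial median, -0.13, was below 0 under 19 of 19 alternatives. It was -0.17 on CPM of non-mitochondrial UMIs, -0.23 with TMM, -0.11 weighted by spots, -0.12 over whole sections, -0.13 at minimums of both 1000 and 5000 UMIs, -0.11 at resolution 0.4 and at 1.5, -0.12 scaled together, -0.11 with groups by marker score, -0.11 without the striatum group, -0.12 without the meninges and -0.18 against genes of like length. The nuclear median, -0.08, was -0.12 on CPM of non-mitochondrial UMIs, -0.18 with TMM and -0.12 against genes of like length. The values against genes of like length compare with -0.22 and -0.17 relative to all genes, so they are smaller, not larger. In white matter over upper cortical layers the mitochondrial median, -0.06, was 0.0541 with TMM, -0.25 at resolution 0.4, -0.14 scaled together and -0.11 by marker score. The nuclear one, -0.56, was -0.44 with TMM, -0.51 at a pseudocount of 20 CPM and -0.49 by marker score, and its gap to all genes, -0.29, was -0.09 among genes of at least 50 CPM. At 1.2-fold lower in O-Ex over O-Ctrl the count of nuclear members, 4, was 6 on CPM of non-mitochondrial UMIs, 16 with TMM, 3 without the striatum group and 5 without the meninges. The cause of these differences was not tested. A minimum of 5000 UMIs and resolution 1.5 left no such pair of groups with enough spots. The alternatives without a group and with genes of like length were added after seeing the data. No paired analysis was possible because each group has 1 section. Genes of few UMIs, such as Cox8b outside choroid plexus, are limited by depth.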
